A study of Mus musculus with 3 samples.

Results

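The genes described are 8 genes tied to proton pumping and potassium transport in specialised epithelial cells: *Atp6v0a4*, *Atp6v1c2*, *Atp6v1b1*, *Tmem213*, *Kcnj15*, *Kcnj16*, *Foxi1* and *Ascl3*. They were taken by symbol, and all 8 were found among the 33696 features of the count tables. The members were chosen by their measured UMI levels in these cells, among them *Atp6v0a4* and *Kcnj16* for their higher levels in cells with *Lrig1*, so their levels by cell class and by *Lrig1* are given as descriptions without a test. The question put to the data was whether these genes mark the rare *Foxi1* cells of the airway, the ionocytes, or the wider luminal epithelium.

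Cells were sorted for the red reporter tdTomato from larynges of Lrig1CreERT2/+; ROSA26 CAG-LSL-tdTomato/+ mice, in which the *Lrig1* locus drives a tamoxifen-dependent Cre, so that cells using *Lrig1* at the time of tamoxifen switch on the reporter. Tissue was collected 24 hours after recombination. There were 3 libraries of droplet single-cell RNA sequencing, each a pool of 10 larynges from 5 male and 5 female mice, and all belonged to this single group. The library is therefore the replicate (n = 3 throughout), and the comparisons are between groups of cells inside the libraries. The p-values measure only the spread between sums of cells from these pools. For luminal against basal cells that spread was estimated over all epithelial classes together, whose sums share the pools.

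The vacuolar proton pump (V-ATPase) is built from a cytosolic V1 part that splits ATP and a membrane V0 part that carries protons. Most of its subunits are made in every cell to acidify lysosomes, but some positions have a second gene that is used in acid-secreting epithelia such as the intercalated cells of the kidney. *Atp6v0a4* encodes such a form of the membrane a subunit, *Atp6v1b1* of the B subunit and *Atp6v1c2* of the C subunit, and *Tmem213* encodes a small membrane protein. *Kcnj15* and *Kcnj16* encode inwardly rectifying potassium channel subunits (Kir4.2 and Kir5.1). *Foxi1*, a forkhead transcription factor, and *Ascl3*, a basic helix-loop-helix factor, are markers of ionocytes in the airway, and FOXI1 is known to drive V-ATPase subunit genes in the inner ear and the kidney.

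The members lie at 7 places on 5 chromosomes of GRCm39 (GENCODE M39 annotation). *Atp6v0a4* spans chr6:38025418-38101521 on the minus strand, and *Tmem213* (chr6:38086190-38092744, plus strand) lies inside its intron 1 (chr6:38071007-38101262) with 0 shared exonic bases. *Atp6v1b1* is on the same chromosome at chr6:83719967-83735837 (plus strand). *Kcnj16* (chr11:110858843-110927617, plus strand) and *Foxi1* (chr11:34154338-34158089, minus strand) share chromosome 11 but are far apart. *Ascl3* spans chr7:109326234-109330933 (minus strand). *Atp6v1c2* (chr12:17334718-17379360, minus strand) overlaps *Pdia6* on the other strand, and *Kcnj15* (chr16:95058417-95101119, plus strand) overlaps the long noncoding RNA *Gm31641* on the other strand.

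The 250 bases before each start site were searched on both strands for the forkhead core TGTTTA and for the palindromic E-box CAGCTG, the kind of site bound by basic helix-loop-helix factors. The forkhead core was found before *Ascl3* and *Atp6v1b1*, and the E-box before *Tmem213* and *Kcnj16*; neither was found before the other 4 members. Over 21770 protein-coding genes, 11.4% of such windows held the forkhead core and 11.9% the E-box. With so common a motif, 2 of 8 windows for each is no result about the members, and the 4 windows are shown to let the matches be read in place. Capitals mark the matches, and the strand is that of the gene (GRCm39; chr7:109330934-109331183 for *Ascl3*, chr6:83719717-83719966 for *Atp6v1b1*, chr6:38085940-38086189 for *Tmem213* and chr11:110858593-110858842 for *Kcnj16*).
Ascl3: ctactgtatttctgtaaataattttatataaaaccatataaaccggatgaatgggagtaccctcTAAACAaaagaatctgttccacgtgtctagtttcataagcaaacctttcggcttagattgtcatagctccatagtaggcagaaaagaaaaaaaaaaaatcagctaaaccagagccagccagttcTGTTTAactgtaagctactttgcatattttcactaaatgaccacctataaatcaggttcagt
Atp6v1b1: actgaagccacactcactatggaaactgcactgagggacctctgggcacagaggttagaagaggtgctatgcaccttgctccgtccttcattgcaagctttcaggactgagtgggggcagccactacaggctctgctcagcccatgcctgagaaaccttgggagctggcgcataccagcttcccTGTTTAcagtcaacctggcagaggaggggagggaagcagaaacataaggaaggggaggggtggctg
Tmem213: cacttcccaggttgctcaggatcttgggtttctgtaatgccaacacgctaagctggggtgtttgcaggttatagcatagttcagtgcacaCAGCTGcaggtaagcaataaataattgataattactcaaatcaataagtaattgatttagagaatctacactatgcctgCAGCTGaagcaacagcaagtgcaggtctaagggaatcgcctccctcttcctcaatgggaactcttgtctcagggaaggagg
Kcnj16: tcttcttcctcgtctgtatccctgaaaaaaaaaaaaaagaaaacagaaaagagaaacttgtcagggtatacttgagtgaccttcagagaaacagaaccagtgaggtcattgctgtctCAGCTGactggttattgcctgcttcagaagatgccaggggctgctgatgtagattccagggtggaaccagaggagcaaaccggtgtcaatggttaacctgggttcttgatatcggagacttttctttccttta
Counted from the start site, the forkhead core begins at base -186 and again at base -62 before *Ascl3*, and at base -66 before *Atp6v1b1*. The E-box begins at bases -160 and -81 before *Tmem213* and at base -133 before *Kcnj16*. A match of 6 letters is a description of the window and not a binding site.

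After quality limits and removal of likely doublets, 44542 cells remained, with 13222, 7201 and 24119 in libraries 1, 2 and 3 and 155487204, 109266625 and 286909155 unique molecular identifiers (UMIs, each 1 captured transcript molecule). Fixed numbers of marker UMIs, none of them of the 8 members, placed cells in classes, and 34876 cells fell in 1 of 16 classes. Of these, 12 classes, 8 of them epithelial, had at least 20 cells in every library. Luminal-like cells were those in which *Krt7*, *Krt8*, *Krt18*, *Cldn4*, *Muc1* and *Muc4* gave a share of at least 0.8 of their UMIs together with the basal genes *Krt5*, *Krt14*, *Col17a1* and *Trp63*. Basal-like cells had a share of at most 0.2, and Intermediate cells lay between. All of these classes took only epithelial cells past the threshold of no other epithelial class. Cells past the goblet, club, gland, ciliated or squamous threshold were thus not among them. Levels are counts per 1000000 UMIs of the class in a library (CPM), with no correction for length since only transcript ends were counted. The libraries shared 307 barcode sequences of 60223.

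The members fell into 3 patterns in these cells. *Atp6v0a4*, *Tmem213* and *Kcnj16* were highest in Luminal-like and Goblet-like cells among the classes with at least 20 cells in every library, and had 2, 1 and 0 UMIs in all Ionocyte-like cells. Luminal-like cells, 1.88% of all cells, held 12.9%, 29.4% and 27.4% of the UMIs of these 3 genes. The more numerous Intermediate cells held 46.5%, 33.6% and 44.4%. *Atp6v1c2*, *Atp6v1b1* and *Kcnj15* each had another order of classes, with the lowest mean among the epithelial ones of those classes in squamous cells for the first 2 and in Ciliated-like cells for *Kcnj15*. *Foxi1* and *Ascl3* were concentrated in a small class of 17 Ionocyte-like cells, which held 60.7% and 52.4% of their UMIs. Of each member's UMIs, between 92.6% (*Atp6v1b1*) and 97.4% (*Kcnj16*) were in epithelial cells. These were 29063 of the 44542 cells and held most UMIs of all genes too, with 31.9% in Basal-like and 27.1% in Intermediate cells alone.

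**Figure D1:**
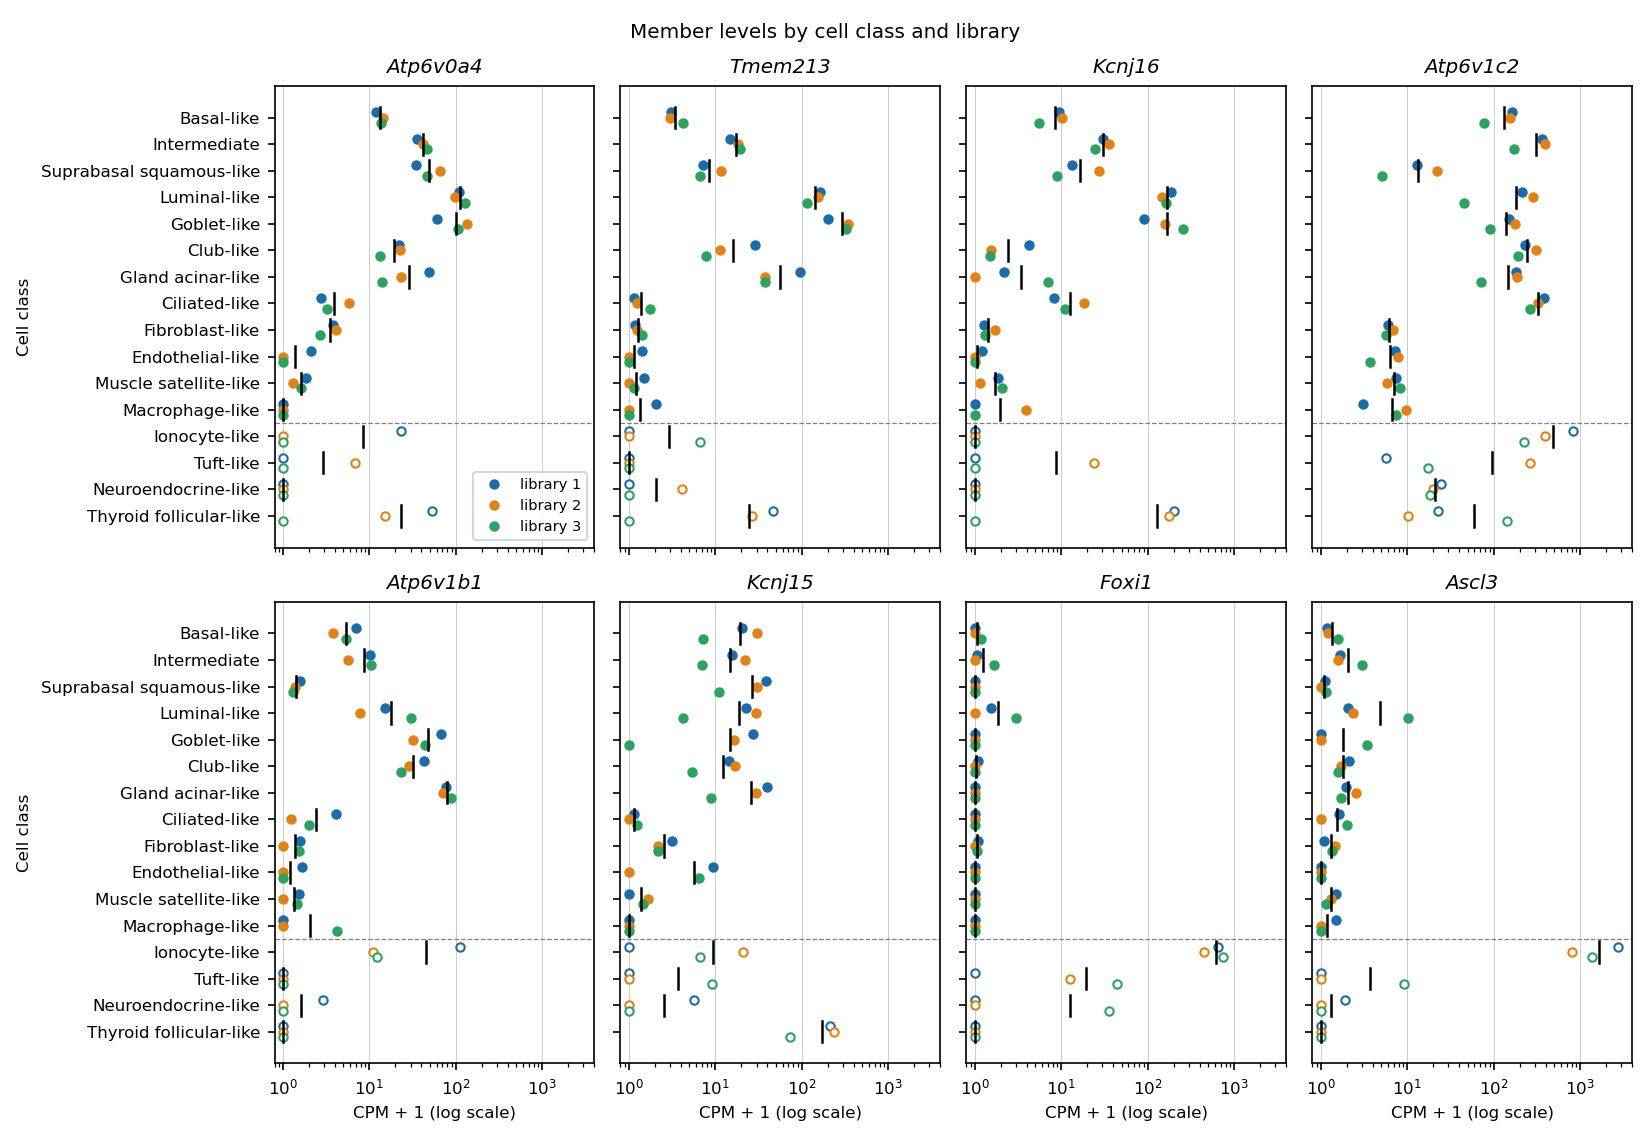
Levels of the 8 members by cell class in CPM plus 1 on a log axis, with 1 point per library and a black bar at the mean of 3 libraries. Filled points are classes with at least 20 cells in each library and open points, below the dashed line, smaller classes. Among the filled points *Atp6v0a4*, *Tmem213* and *Kcnj16* are highest in Luminal-like and Goblet-like cells, with *Kcnj16* at 203 and 175 CPM in the open points of Thyroid follicular-like cells, and *Foxi1* and *Ascl3* in Ionocyte-like cells.

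*Atp6v0a4* stood at 107, 97.5 and 127 CPM in the Luminal-like cells of libraries 1, 2 and 3 (111 ± 15.3, SD, n = 3). In Goblet-like cells, which make the gel mucins, it was at 60.1, 135 and 106 CPM. Next came Suprabasal squamous-like cells (33.8, 64.6 and 45.5 CPM) and Intermediate cells (34.8, 41.1 and 45.2 CPM), and each of these 4 classes overlapped the next. Basal-like cells had 10.9, 13.5 and 12.5 CPM, and Ciliated-like cells 1.77, 4.79 and 2.25 CPM, which did not overlap. Fibroblast-like cells, which should not use the gene, had 2.81, 3.07 and 1.68 CPM, a range that overlapped that of the Ciliated-like cells. How much of either level was free RNA was not tested.

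*Tmem213*, the gene inside the *Atp6v0a4* intron, had a sharper order. It was at 200, 346 and 322 CPM in Goblet-like cells (289 ± 78.2) and at 161, 154 and 115 CPM in Luminal-like cells (143 ± 24.9). Gland acinar-like cells, set by *Dmbt1*, a marker of the submucosal glands, had 94.2, 36.2 and 36.2 CPM. These 3 classes did not overlap one another in that order, and none overlapped with Intermediate (13.7, 17.4 and 18.2 CPM) or Basal-like cells (2.08, 2.01 and 3.21 CPM).

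The genes at this locus did not keep 1 ratio. The number of *Tmem213* UMIs per *Atp6v0a4* UMI was 2.98 ± 0.39 in Goblet-like, 2.14 ± 0.61 in Gland acinar-like and 1.33 ± 0.37 in Luminal-like cells. It was 0.41 ± 0.015 in Intermediate, 0.20 ± 0.054 in Basal-like and 0.16 ± 0.029 in Suprabasal squamous-like cells. The squamous cells thus carried *Atp6v0a4* at a level near that of Intermediate cells but little *Tmem213* (6.17, 10.6 and 5.68 CPM). The libraries of each of these classes stayed on the same side of 1 except in the Luminal-like cells, where the lowest ratio was 0.90. In Club-like cells the ratio ran from 0.48 to 1.31.

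*Kcnj16* was at 185, 144 and 163 CPM in Luminal-like cells (164 ± 20.5) and at 90.1, 158 and 255 CPM in Goblet-like cells (168 ± 82.9). Kir5.1 forms channels with other Kir subunits and is known from the basolateral membrane of kidney tubules. Intermediate cells had 29.8, 34.8 and 23.9 CPM and Basal-like cells 8.39, 9.34 and 4.56 CPM. Unlike *Tmem213*, it was low in the glands, at 1.2, 0 and 6.08 CPM, and in Club-like cells, at 3.23, 0.54 and 0.52 CPM, while Ciliated-like cells had 7.25, 17.4 and 10.0 CPM. Outside the airway epithelium it was high in the few Thyroid follicular-like cells, at 203 and 175 CPM in libraries 1 and 2, with 0 in the 2 such cells of library 3.

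The same genes followed the luminal share of the keratin and mucin markers within the Basal-like, Intermediate and Luminal-like cells. When these cells were placed in 10 equal steps of that share, *Kcnj16* went from 3.43 CPM in the lowest step to 207 CPM in the highest, as means of 3 libraries. *Tmem213* went from 1.56 to 163 CPM and *Atp6v0a4* from 7.81 to 107 CPM, with its highest value, 123 CPM, in the ninth step. The means of *Kcnj16* and *Tmem213* were higher in each step than in the one before. *Atp6v1c2* took another course: it went from 94.0 CPM to 383 CPM in the step from 0.6 to 0.7 and was at 113 CPM in the last, though library 3 was highest one step earlier (200 CPM, then 138 CPM). *Kcnj15* was at 21.2 CPM in the first step, at 21.2 CPM in the last and lower between them (11.1 to 15.7 CPM). Library 3 did not return to its first level, with 6.92 CPM in the first step and 3.59 CPM in the last.

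**Figure D2:**
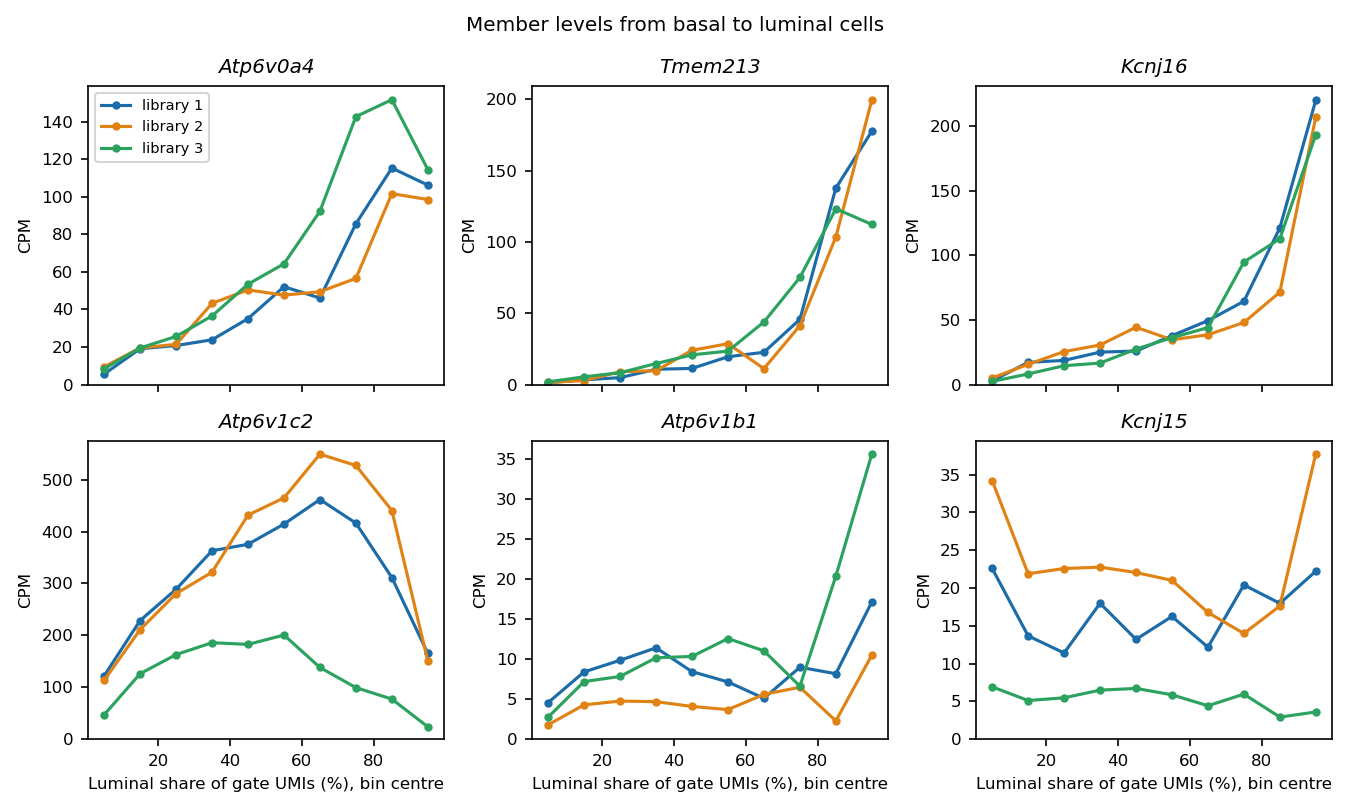
Level in CPM (linear axis) of the members against the luminal share of marker UMIs, with 1 line per library. The 10 steps run over Basal-like, Intermediate and Luminal-like cells. *Kcnj16*, *Tmem213* and *Atp6v0a4* are higher at high shares, while *Atp6v1c2* is highest between 0.6 and 0.7 in libraries 1 and 2 and between 0.5 and 0.6 in library 3, and *Kcnj15* has no single direction.

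*Atp6v1c2*, the C subunit gene, was the most abundant member, with 84526 UMIs in 19286 cells. It was at 387, 326 and 262 CPM in Ciliated-like cells (325 ± 62.4) and at 363, 390 and 172 CPM in Intermediate cells. Club-like cells had 230, 306 and 190 CPM, Luminal-like cells 215, 285 and 44.8 CPM and Basal-like cells 163, 153 and 76.2 CPM. All neighbours in this order overlapped except Basal-like and Suprabasal squamous-like cells, where it was at 12, 21.1 and 4.18 CPM. Library 3 was the lowest in 8 of 8 epithelial classes, and without it the mean in Luminal-like cells was 250 CPM in place of 182 CPM. Fibroblast-like cells had 5.09, 5.91 and 4.73 CPM.

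*Atp6v1b1*, whose B subunit carries part of the ATP-binding sites, had its highest level in the glands, although these held 17.3% of its UMIs, against 26.2% in Intermediate and 21.1% in Club-like cells. It was at 76.6, 70.9 and 88.1 CPM in Gland acinar-like cells (78.5 ± 8.76), which did not overlap the next class, Goblet-like cells with 66.1, 31.1 and 42.5 CPM. Club-like cells had 42.4, 27.8 and 22.3 CPM and Luminal-like cells 14.1, 6.75 and 29.4 CPM. Squamous cells (0.59, 0.39 and 0.32 CPM) overlapped Fibroblast-like cells (0.57, 0 and 0.54 CPM). Library 2 was the lowest in 6 of 8 epithelial classes, and the mean in Luminal-like cells, 16.7 CPM, was 10.4 CPM without library 3.

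*Kcnj15* was in most epithelial classes at levels that overlapped. Its highest mean was in Suprabasal squamous-like cells (37.1, 29.0 and 9.97 CPM), and Gland acinar-like (38.7, 28.2 and 8.03 CPM), Basal-like (19.1, 29.3 and 6.24 CPM) and Luminal-like cells (21.4, 28.4 and 3.29 CPM) all overlapped it. Ciliated-like cells lacked it (0.16, 0 and 0.25 CPM). Library 3 was the lowest in 7 of 8 epithelial classes, and within each library Suprabasal squamous-like cells had more than Luminal-like cells. The highest level was outside the airway epithelium, in Thyroid follicular-like cells, at 211, 234 and 71.8 CPM.

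Setting the pump genes against the other genes for the same subunit position showed which form made up the transcripts. *Atp6v0a4* gave 51.7%, 47.6% and 55.3% of all a subunit UMIs in Luminal-like cells (the others being *Atp6v0a1*, *Atp6v0a2* and *Tcirg1*), and 43.2%, 62.2% and 57.6% in Goblet-like cells. It gave 31.2% ± 2.96 in Intermediate, 11.6% ± 1.12 in Basal-like and 4.36% ± 2.65 in Ciliated-like cells. *Atp6v1b1* gave 46.6%, 49.6% and 57.5% of B subunit UMIs in Gland acinar-like cells, where *Atp6v1b2* gave the rest, and 18.1% ± 10.7 in Luminal-like cells. *Atp6v1c2* gave 87.8% ± 2.31 of C subunit UMIs in Ciliated-like and 73.4% ± 10.1 in Basal-like cells, with Luminal-like, Intermediate, Club-like, Goblet-like and Gland acinar-like cells between them. It gave 22.6% ± 12.5 in Suprabasal squamous-like, 17.9% ± 1.95 in Neuroendocrine-like and 11.6% ± 1.00 in Fibroblast-like cells, and 18 of 143 UMIs in Thyroid follicular-like cells. How well each paralog's transcript end was captured is not known, so a share near 50% does not show equal numbers of molecules.

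**Figure D3:**
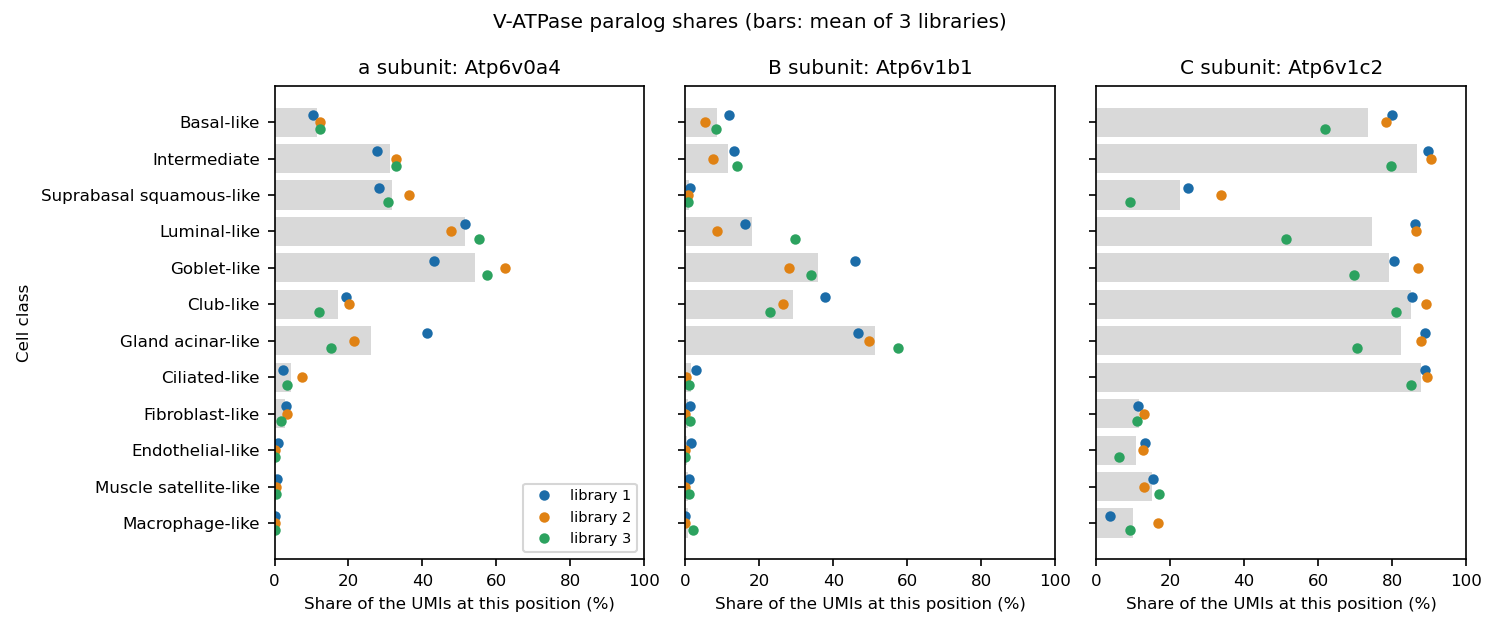
Percent of the UMIs of the a, B and C subunit positions that came from *Atp6v0a4*, *Atp6v1b1* and *Atp6v1c2* in each class, with 1 point per library and a bar at the mean. *Atp6v0a4* is highest in Luminal-like and Goblet-like cells, *Atp6v1b1* in Gland acinar-like cells, and *Atp6v1c2* is low in squamous and non-epithelial cells.

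Within the Luminal-like class, the 3 luminal members were each found more often in cells that had another of them, and *Atp6v1c2* was rarer in the cells that had them. Since detection rises with depth, each of 795 cells was thinned to 5000 UMIs, and 41 shallower cells were left out. *Kcnj16* was then detected in 32.0% ± 6.23 of the cells, *Atp6v0a4* in 27.1% ± 3.56 and *Tmem213* in 22.5% ± 2.12, against 0.28% ± 0.032, 0.62% ± 0.26 and 0.18% ± 0.16 of Fibroblast-like cells at the same depth. A *Tmem213* UMI was found in 50%, 58.3% and 40.0% of *Atp6v0a4*-positive cells of libraries 1, 2 and 3, and in 15.6%, 10.3% and 12.6% of negative cells. *Kcnj16* was found in 64.5%, 54.2% and 51.6% of *Atp6v0a4*-positive cells and in 26.8%, 16.0% and 26.0% of negative cells. The groups did not overlap in either pair. With cells thinned to 2000 UMIs the mean differences were smaller, 22.0 points in place of 36.6 for *Tmem213* and 15.5 in place of 33.8 for *Kcnj16*, and in 3 of 3 libraries still higher in the positive cells. All of *Atp6v0a4*, *Tmem213* and *Kcnj16* were found in 63 cells (8.0% ± 1.2), and none of them in 52.4% ± 6.0 of the cells. Goblet-like cells had all 3 in 9.9% ± 3.3, and Basal-like cells in 3 of 11763.

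*Atp6v1c2* was found in 11.5%, 5.88% and 7.62% of *Kcnj16*-positive Luminal-like cells and in 50.8%, 64.1% and 23.9% of negative cells. Only 23 of 260 *Kcnj16*-positive cells had it. It was likewise found in 15.8%, 12.5% and 8.42% of *Atp6v0a4*-positive cells and in 43.9%, 60.9% and 22.8% of negative cells. *Kcnj16* was found in 3 of 63 *Atp6v1b1*-positive cells, which were 11.8%, 10.0% and 0% of them by library, against 38.6%, 25.8% and 38.3% of negative cells. Thus the pump subunit genes *Atp6v0a4* and *Atp6v1c2* were for the most part not detected in the same Luminal-like cells at this depth. These shares are descriptions: the cells of a library share their source, and the class may hold several kinds of cell.

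**Figure D4:**
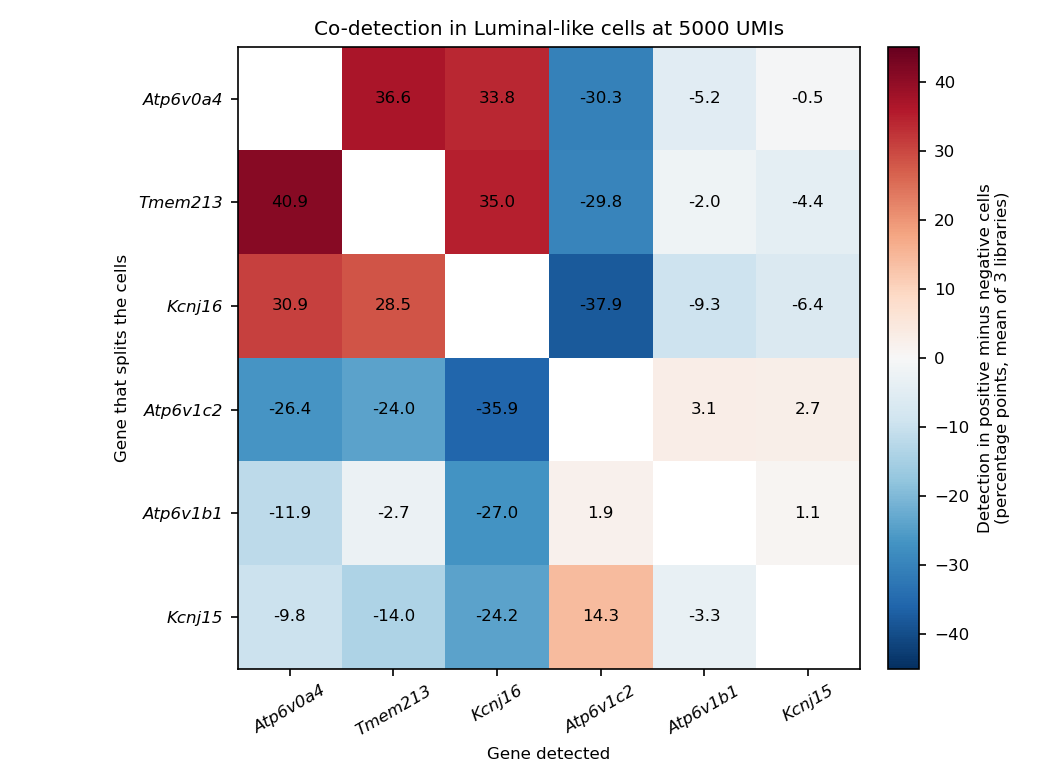
Difference in detection between cells with and without a UMI of the gene named at the left, in percentage points as the mean of 3 libraries, for 795 Luminal-like cells thinned to 5000 UMIs. *Atp6v0a4*, *Tmem213* and *Kcnj16* are found together (28.5 to 40.9 points), and *Atp6v1c2* is rarer in cells positive for any of these 3.

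*Foxi1* was detected in 77 cells with 389 UMIs in all, and the cells were unevenly spread, with 11, 5 and 61 in libraries 1, 2 and 3. Of these cells, 45 had 1 UMI, 40 of them in library 3. The class set by ionocyte genes other than the members (at least 3 of 9 genes, among them *Cftr*, *Bsnd*, *Stap1*, *Moxd1*, *Asgr1*, *P2ry14* and *Atp6v0d2*, with 5 UMIs or more) held 4, 4 and 9 cells, and 236 UMIs of *Foxi1*, which was 60.7% of them. There *Foxi1* was at 659, 446 and 748 CPM, against 0.53, 0 and 2.01 CPM in Luminal-like cells. *Ascl3* was at 2748, 813 and 1365 CPM, against 1.05, 1.40 and 9.13 CPM, and 14 of the 17 cells had both factors. The remaining Ionocyte-like cells had neither, so that not every cell of the class carried these markers. In Fibroblast-like cells 3 of 3800 cells had a *Foxi1* UMI and 10 an *Ascl3* UMI. Basal-like cells had 20 of 12419 with *Foxi1*, each with 1 UMI.

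Of the 13 kidney intercalated cell genes, 8 were at 0 UMIs in the 17 cells (*Slc4a1*, *Slc4a9*, *Slc26a7*, *Aqp6*, *Rhcg*, *Car15*, *Oxgr1* and *Insrr*), and 5 had a UMI (*Hepacam2*, *Tfcp2l1*, *Dmrt2*, *Slc26a4* and *Rhbg*). *Stap1* was in 15 of the 17 cells and *Cftr*, the chloride channel mutated in cystic fibrosis, in 14, both being genes that chose the class. *Bsnd*, which encodes barttin and also chose the class, was in 2 cells. Of genes not used for the choice, *Hepacam2* was in 13 cells (225 UMIs), *Tfcp2l1*, a transcription factor of intercalated cells, in 12 (143 UMIs) and *Dmrt2* in 14 (132 UMIs), where the shares among the other epithelial cells were 0.85%, 19.7% and 45%, and *Foxi2*, a relative of *Foxi1*, in 4 (12 UMIs), against 2 *Foxi2* UMIs in all 29046 other epithelial cells. *Igf1* was at 0 UMIs. *Slc4a1*, *Aqp6*, *Rhcg* and *Oxgr1* had 1 to 4 UMIs in all the other epithelial cells too, so that their 0 says little. There *Slc4a9* (1.94 CPM), *Slc26a7* (4.49 CPM), *Car15* (0.87 CPM), *Insrr* (0.41 CPM) and *Igf1* (5.65 CPM) were low as well. All lay below the 8.18 CPM that 3 counts make in the 17 cells, so their 0 says little too. No test was made over so few cells.

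Few or no UMIs of the luminal members were found in the Ionocyte-like cells. Over the 17 Ionocyte-like cells together, *Kcnj16* had 0 UMIs. A limit of 3 counts over the 3 libraries allows a level of up to 8.18 CPM, and the 95% Poisson interval reaches 10.1 CPM. The limit of 3 counts in cell numbers is 17.6% with the gene detected. The other epithelial cells had 20.5 CPM, but the means of Basal-like (7.43 CPM), Gland acinar-like (2.43 CPM) and Club-like cells (1.43 CPM) lay below both limits. *Tmem213* had 1 UMI, in a cell without *Foxi1* or *Ascl3* UMIs (2.72 CPM, 95% Poisson interval 0.069 to 15.2), against 16.3 CPM. That interval holds the means of Basal-like (2.43 CPM), Suprabasal squamous-like (7.50 CPM) and Club-like cells (14.9 CPM). With library 1, 2 or 3 left out, an alternative added after seeing the data, its upper bound was 20.1, 20.9 or 19.4 CPM, above 16.3 CPM. *Atp6v0a4* had 2 UMIs in 1 cell of library 1 (5.45 CPM, 0.66 to 19.7), against 29.0 CPM, an interval that holds the mean levels of Basal-like (12.3 CPM) and Club-like cells (18.3 CPM), and so made up 2 of 62 a subunit UMIs (3.23%, 95% Wilson interval 0.89 to 11). Without library 3 the *Atp6v0a4* level was 10.5 CPM (1.27 to 37.9), an interval that holds 29.0 CPM. Without library 1 or 2 the upper bounds were 13.3 and 27.2 CPM. *Kcnj15* had 3 UMIs (8.18 CPM, 1.69 to 23.9), against 13.2 CPM, which that interval holds.

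*Atp6v1c2* had 154 UMIs in 12 of the 17 cells (420 CPM, 356 to 491), with 70 of them in 1 cell, against 176 CPM in the other epithelial cells. By library this was 827, 396 and 227 CPM, above the Luminal-like cells of the same library in each of the 3 libraries. The cell with 70 UMIs was in library 1, and the order in that library rests on it. Without library 1, left out after the data were seen, the level was 288 CPM (229 to 359). That interval holds the means of Ciliated-like (325 CPM) and Intermediate cells (308 CPM). Ciliated-like cells were at 262 to 387 CPM over the libraries, above the 227 CPM of the Ionocyte-like cells in library 3. In the Ionocyte-like cells *Atp6v1c2* gave 154 of 166 C subunit UMIs (92.8%). *Atp6v1b1* had 13 UMIs in 5 cells, 7 of them in 1 cell (35.4 CPM, 18.9 to 60.6), which was 13 of 57 B subunit UMIs, and the other epithelial cells had 9.74 CPM. Library 1 gave 10 of the 13 UMIs (112 CPM), and libraries 2 and 3 stood at 9.91 and 11.3 CPM. Without library 1, an alternative chosen after seeing the data, the level was 10.8 CPM (2.23 to 31.6), an interval that holds the level of the other epithelial cells. Intervals and limits cover counting error only.

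The cells were also taken by their *Foxi1* UMIs. Of the 22 cells with at least 3 *Foxi1* UMIs (3, 2 and 17 by library; median 21883.5 UMIs a cell), 18 had *Ascl3*, 16 *Atp6v1c2*, 5 *Atp6v1b1*, 2 *Atp6v0a4*, 1 *Kcnj16*, 1 *Kcnj15* and 0 *Tmem213*. Of these 22 cells, 12 were among the Ionocyte-like cells described above, so the counts are not from a separate set of cells. None of these 22 cells had more than 1 UMI of *Atp6v0a4*, of *Tmem213* or of *Kcnj16*. Of the 2810 cells with at least 3 UMIs of those 3 genes, 1 had a *Foxi1* UMI, where 77 of all 44542 cells had one (0.17%), so that few such cells could be found at this depth. Among all 68 *Foxi1*-positive epithelial cells (8, 5 and 55 by library; median 14507 UMIs), *Ascl3* was in 44.1% (95% Wilson interval 33.0 to 55.9), and in 69.2% without library 3. The *Foxi1*-negative cells were 6670, 4714 and 17611 by library (median 14435 UMIs). Of the positive cells, the 38 with 1 *Foxi1* UMI had a median of only 6597 UMIs. Those with 2 had a median of 19602 and those with 3 or more of 21875. The shares were not thinned to a common depth. *Atp6v1c2* was in 55.9% of the positive against 57.0% of the negative cells over all libraries, but within libraries, a split added after seeing the data, in 75.0%, 80.0% and 50.9% against 65.5%, 72.7% and 49.7%. Over all libraries *Atp6v0a4* was in 11.8% (6.08 to 21.5) against 14.2%, *Kcnj16* in 5.88% against 9.43% and *Tmem213* in 1.47% against 5.78%. Within libraries these shares rested on 0, 0 and 1 positive cells with *Tmem213*, 0, 2 and 2 with *Kcnj16* and 2, 1 and 5 with *Atp6v0a4*, too few to read a direction from. The *Foxi1*-positive cells were too few in libraries 1 and 2 for a test across libraries.

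**Figure D5:**
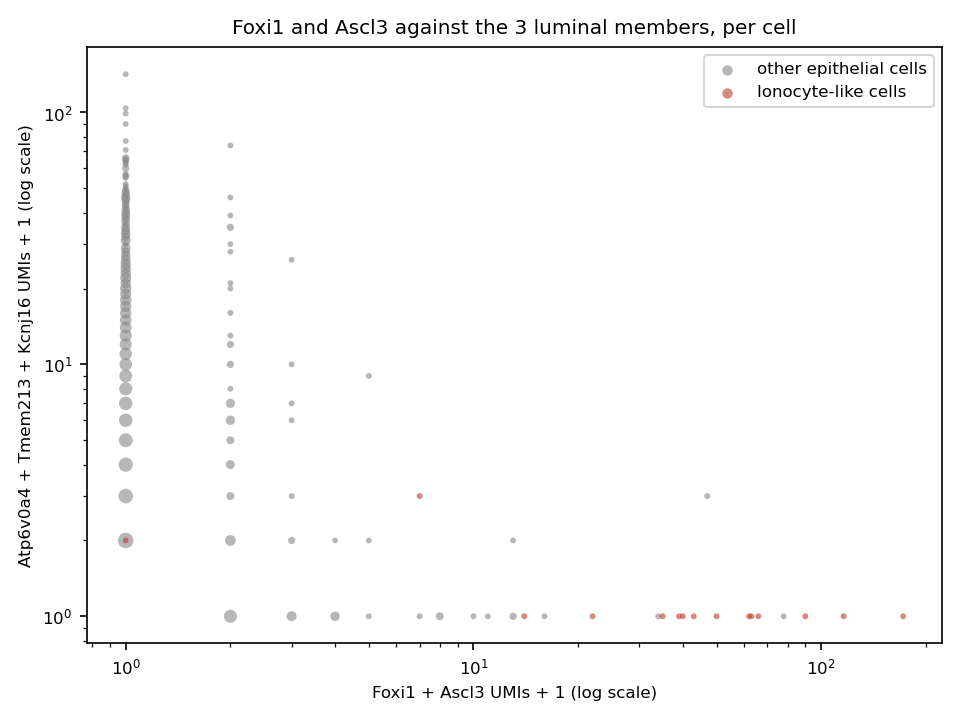
Cells by their *Foxi1* plus *Ascl3* UMIs and their *Atp6v0a4*, *Tmem213* plus *Kcnj16* UMIs, cells with none of both left out, with Ionocyte-like cells in colour. Cells rich in the ionocyte factors lie along one axis and cells rich in the luminal genes along the other.

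The members were next set against *Lrig1*, the gene the sort was built on. In Luminal-like cells with an *Lrig1* UMI (545 cells), *Atp6v0a4* was at 135, 110 and 149 CPM in libraries 1, 2 and 3, and in those without (291 cells) at 36.2, 58.4 and 68.4 CPM, so the groups did not overlap. *Kcnj16* was at 206, 160 and 178 CPM against 133, 97.7 and 124 CPM, and *Tmem213* at 181, 173 and 117 CPM against 112, 94.8 and 108 CPM, higher in the *Lrig1*-positive cells of 3 of 3 libraries. The mean differences on the log2(CPM + 1) scale were 1.29 ± 0.51, 0.61 ± 0.10 and 0.55 ± 0.39. In Intermediate cells the same 3 members differed by 1.14 ± 0.17, 0.70 ± 0.26 and 1.25 ± 0.10, again in 3 of 3 libraries. Goblet-like cells were 48 with *Lrig1* (15, 8 and 25 by library) and 83 without (39, 17 and 27), so some sums held fewer than 20 cells. There *Kcnj16* was higher in 3 of 3 libraries but *Atp6v0a4* (1.14 ± 1.68) and *Tmem213* (0.30 ± 1.5) in 2 of 3. In library 2 *Tmem213* was at 208 CPM against 459 CPM. *Atp6v1b1* was lower in the *Lrig1*-positive Luminal-like cells of 3 of 3 libraries (-0.80 ± 0.53). The *Lrig1*-positive cells held more UMIs (medians of 21984.5 against 12555 in library 1, 21760 against 15293 in library 2 and 18136 against 12455.5 in library 3), and the part of depth was not tested. *Atp6v0a4* and *Kcnj16* were chosen on this contrast, and nothing is supported by their difference here. *Lrig1* was in 7 of the 17 Ionocyte-like cells.

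In the test across all genes, 1 of 11256 genes (0.00888%) differed between *Lrig1*-positive and *Lrig1*-negative Luminal-like cells (edgeR quasi-likelihood test, Benjamini-Hochberg adjusted p under 0.05), 0 higher and 1 lower. None of the 38 tested list genes of V-ATPase subunits, channels, transporters and kidney acid-base genes was called, while 587 genes had an unadjusted p under 0.05 and DESeq2 called 30. With the library as a block 245 genes (2.18%) were called, 1.46% lower, and 1 of the 38 list genes, a share near that of all genes, the sodium-potassium-chloride cotransporter *Slc12a2*, which was lower (-0.48, edgeR adjusted p = 0.044).

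The other genes of these pathways were compared between Luminal-like and Basal-like cells, where 29.6% of 14880 genes tested were called by edgeR, 15.8% higher and 13.8% lower, with a median log2 difference of -0.03. Of the V-ATPase subunit list, 19 genes besides the members were tested, and 10 were higher and 0 lower in Luminal-like cells (11 with the library as a block, which called 42.7% of all genes, 21.9% higher and 20.8% lower), with a median of 0.40. The largest difference was in *Atp6v0e2*, a second gene for the membrane e subunit, at 11.8, 7.21 and 17.0 CPM against 0.77, 0.68 and 1.79 CPM (log2 difference 3.49, SE 0.38, edgeR adjusted p = 3.7e-07). *Atp6ap2*, the prorenin receptor and a pump accessory subunit, followed with 140, 123 and 177 CPM against 70.3, 62.9 and 73.7 CPM (1.21, SE 0.15). The remaining 8, among them *Atp6v1b2* (0.71), *Atp6v1d* (0.70) and *Tcirg1* (0.57), differed by 0.40 to 0.71. The paralogs *Atp6v1c1* (0.01), *Atp6v0a1* (0.21) and *Atp6v0a2* (0.20) did not pass.

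Of the inward rectifiers besides the members, 4 could be tested. *Kcnj1* (2.46, 1.63 and 3.65 CPM against 5 UMIs in all Basal-like cells, log2 difference 6.46, SE 0.72) and *Kcnj11* (3.34, 3.26 and 4.2 CPM against 0.096, 0.032 and 0.044 CPM, 6.03, SE 0.58) were higher, though at under 5 CPM. *Kcnj2*, the neighbour of *Kcnj16* on chromosome 11 (29364 bases away), was lower (-0.70, edgeR adjusted p = 0.042), and lost the call without library 1, without library 2 and with doublets kept. *Kcnj13* did not pass (0.20). The rest of the potassium transport list was mostly higher: 8 of 10 genes, 0 lower, with a median of 1.88. *Kcnq1*, a voltage-gated potassium channel, was at 96.3, 99.6 and 80.4 CPM against 3.46, 3.93 and 4.05 CPM (4.70, SE 0.35), and its partner *Kcne3* was at 90.9, 57.2 and 98.5 CPM against 3.30, 4.93 and 5.27 CPM (4.30, SE 0.24). *Lrrc26* (2.80), *Kcnn4* (2.22), *Kcnk5* (1.89), *Slc12a2* (1.88), *Kcnk1* (1.72) and *Atp1b1* (1.52) made up the rest.

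Of the other proton transport genes, 4 were tested, and 2 were higher and 1 lower. The carbonic anhydrase *Car2* was higher (3.28, SE 0.55, with 31 UMIs in Luminal-like cells) and the sodium-proton exchanger *Slc9a2* too (2.50, SE 0.47), while another carbonic anhydrase, *Car12*, was lower, at 7.91, 8.14 and 10.0 CPM against 33.0, 35.0 and 41.3 CPM (-1.94, SE 0.23). Of 13 intercalated cell genes, 7 were tested and 2 were called, a share close to the 29.6% of all genes, both higher: the ammonium transporter *Rhbg* (3.02, SE 0.29) and *Tfcp2l1* (2.05, SE 0.24). The median was -0.17, and *Slc4a9* (-1.21) was called lower with the block only. The ionocyte list could not be tested, as 9 of its 10 genes set the classes, and *Igf1* alone did not pass (-2.36, edgeR adjusted p = 0.19). It was called lower with the block (-2.02), and with doubled class thresholds its direction turned (1.01, edgeR adjusted p = 0.51). *Foxi2* and *Foxi3* were too low to test.

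Over the 48 sums of class and library, the genes whose levels on the log2(CPM + 1) scale were most like each member were found among 14780 genes, as a description over sums that share libraries. The sums took in all 16 classes, small ones too, and the values of *Foxi1* and *Ascl3* rest on the 3 Ionocyte-like sums of 4, 4 and 9 cells. For *Atp6v0a4* these were *AA986860* (Pearson's r = 0.91), *Svopl* (0.88) and *Ces1e* (0.86), and *Svopl* is also its neighbour, 1486 bases away on the same strand. *Tmem213* was most like *Ces1e* (0.88), *Atp13a5* (0.87) and the goblet cell gene *Clca1* (0.85). *Kcnj16* had no close match (*Cyp4a12a*, 0.75). *Atp6v1b1* was most like the secretory genes *Pon1* (0.86) and *Bpifa1* (0.86), and *Atp6v1c2* like *Uhrf1bp1l* (0.88) and the copper pump gene *Atp7b* (0.86). *Kcnj15* was most like *Tmem205* (0.81) and *Gm31641* (0.73), the latter overlapping it on the other strand. *Foxi1* was most like *Vwa2* (0.90) and *Gm12121* (0.87), a long noncoding RNA 60584 bases from it, and *Ascl3* like *Gm12121* (0.95), *Smbd1* (0.94) and *Foxi2* (0.81).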

How the data were processed

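Droplet 3′ single-cell RNA sequencing was made of 3 libraries of tdTomato-sorted larynx cells. The authors aligned the reads to mm39 (GRCm39) with Cell Ranger 8.0.1 (per the submitters' processing notes) and deposited UMI counts per gene and barcode, not normalized, as whole numbers. Limits of 500 to 8000 genes, of 1000 to 40000 UMIs and of 8% for the mitochondrial share took 60530 barcodes to 49393. Barcodes that resembled simulated doublets were removed at 0.4% per 1000 barcodes (1030, 326 and 3495). The counting setting for overlapping genes was not given in the sources used here.

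Cells were classed by UMI thresholds on marker genes, set from the markers' distributions and not from the members. Some of the marker genes are not reported here. The luminal share placed only epithelial cells that passed no threshold of another epithelial class. A cell past 1 such threshold, as for goblet or squamous cells, went to that class whatever its luminal share. Otherwise, cells that passed the thresholds of more than 1 class, or of none, went into no class (9666), except where the classes were all secretory. A cell past the *Dmbt1* threshold was Gland acinar-like even if it also passed a goblet or club threshold. One past both the goblet and a club threshold was Goblet-like. The members and gene lists were chosen with earlier results of these data known. Sums per class and library were tested with the quasi-likelihood test of edgeR 4.0.16 under R 4.3.3, with TMM factors, the filterByExpr filter, a Benjamini-Hochberg threshold of 0.05 and no covariates. For Luminal-like against Basal-like cells, the sums of all epithelial classes entered a single fit and shared its estimate of the spread. That estimate therefore drew on more sums than those of the compared classes, all from the same pools. Genes that set the classes were left out between Luminal-like and Basal-like cells. Only *Lrig1* was left out between *Lrig1*-positive and *Lrig1*-negative cells. Thinning, shares and figures used Python 3.11.15, numpy 2.4.6, pandas 2.3.3, scipy 1.17.1 and matplotlib 3.10.9. Named genes were the members, list genes past the threshold with the largest first, and the 3 genes most like each member. Some list genes that did not pass are also named, chosen after their values were seen. Scripts were tested on simulated data.

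Sums of the same library come from the same pool: the deviations of a library's Luminal-like and Basal-like sums from their class means correlated by 0.20, 0.36 and 0.38 over genes, and those of the Lrig1 sums by 0.23, 0.44 and 0.56, so the library number pairs the sums. Alternatives were the library block, DESeq2 1.42.0, RLE factors, no filter on low counts, doublets kept, doubled thresholds, no quality limits, thinning to 2000 UMIs and leaving out each library. Promoter windows came from GRCm39 and GENCODE M39.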

Additional observations from a re-analysis of the deposited data

Results flagged for a closer look

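*Atp6v1c2* moved in opposite directions with *Lrig1* in a pair of classes. In Gland acinar-like cells its level was higher in *Lrig1*-positive than in *Lrig1*-negative cells of 3 of 3 libraries (207, 194 and 86.5 CPM against 155, 180 and 53.7 CPM, a mean log2 difference of 0.40). In Intermediate cells it was lower in 3 of 3 libraries (344, 364 and 167 CPM against 415, 475 and 185 CPM, -0.27). The difference between the classes was not tested. In both classes the *Lrig1*-positive cells had more UMIs per cell, with medians of 24315.5 against 14461.5 and of 16468 against 12798 in library 1, and the part of depth in either difference was not tested.

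Cells that fell into no class held 42 *Foxi1* UMIs, 10.8% of all, in 13 cells, and 3 of these had at least 3 UMIs. They enter no comparison by class. Of the same 9666 cells, 35 had an *Ascl3* UMI and 7 had both factors.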

How the results depend on the processing

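Of 113 levels, shares and detection differences of the members under other settings, 102 were counted as within their spread and 0 as reversed. This was the spread between libraries, or for some shares of pooled cells a Wilson interval. Leaving out 1 of 3 libraries cannot move their mean by more than their SD, so such values could only count as within it. Levels and shares cannot fall below 0, so only detection differences could change sign. The counts are therefore no measure of stability for those values. With cells thinned to 2000 UMIs, *Atp6v0a4* in Luminal-like cells was at 94.3 CPM (111 as reported) and its share of a subunit UMIs at 47.5% (51.5%), and the difference in detection between *Atp6v0a4*-positive and negative cells was 22.0 points for *Tmem213* (36.6) and 15.5 points for *Kcnj16* (33.8). Without thinning these differences were 49.4 and 52.9 points. With doubled thresholds *Foxi1* was at 824 CPM in the then 13 Ionocyte-like cells (618 CPM in 17). There were 21 such cells with doublets kept and 29 without quality limits. With at least 2 *Foxi1* UMIs, 70.0% of *Foxi1*-positive epithelial cells had *Ascl3* (44.1%). Leaving out 1 library at a time gave 40.0% to 69.2% for that share and 55.3% to 86.7% for the share of *Foxi1* UMIs in Ionocyte-like cells, the upper values without library 3.

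Between Luminal-like and Basal-like cells, 2276 to 4050 genes were called with 1 library left out, 2276 without library 1, against 4404. With the library as a replicate block 6357 were called. Of the 26 list genes called, 22 were called under every alternative run and 0 changed direction, while *Igf1*, which was not called, turned from -2.36 to 1.01 with doubled thresholds. *Atp6v1a*, *Atp6v1f* and *Atp6v0c* lost the call in some, as did *Kcnj2*. Between *Lrig1*-positive and *Lrig1*-negative Luminal-like cells, 1 gene was called as reported, 30 by DESeq2, 63 without the filter on low counts, 245 with the replicate block and 0 to 15 with 1 library left out. The cause was not tested. The planned tests of *Foxi1*-positive epithelial cells (8, 5 and 55) and of Ionocyte-like cells (4, 4 and 9) were not run, since sums of fewer than 10 cells would have entered, so depth and cell number limit every statement on ionocytes.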

Other observations

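The Thyroid follicular-like cells, 28, 19 and 2 in libraries 1, 2 and 3, carried both Kir genes of the set. Of the cells in libraries 1 and 2, 96.4% and 94.7% had a *Kcnj15* UMI and 96.4% and 78.9% a *Kcnj16* UMI, while *Atp6v1b1* was at 0 UMIs.

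Tuft-like cells (9, 7 and 14) held 18 *Foxi1* UMIs in 4 cells, most of them in 1 cell, the only one with at least 3. *Atp6v1c2* in this class was at 4.67, 261 and 16.2 CPM, so that library 2 stood apart.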
